A study of Mus musculus with 8 samples.

Results

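The genes described here are 9 carbonic anhydrase genes, Car15, Car4, Car9, Car12, Car2, Car13, Car3, Car8 and Car11, and the bicarbonate transporter gene Slc4a4. They are 10 of the 23366 genes in the deposited table and were taken by name, in all 8 libraries. The genes were chosen by family, with their levels in bottom and top libraries of this table already known. The difference between the populations is therefore given for these 10 genes as a description, and no test is read from it. The study sorted pancreatic beta cells of NOD mice aged 8 to 10 weeks, which become diabetic by autoimmune attack on the islets, into a bottom and a top population. Each population had 4 libraries, bottom 1 to bottom 4 and top 1 to top 4, and in each population libraries 1 and 2 were in batch 1 and libraries 3 and 4 in batch 2. The labels name no treatment, and each library was made from about 1000 primary cells. The labels do not state how the populations were gated or whether libraries came from separate animals, so any p-value reflects how far these libraries vary, some of which may be technical.

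Carbonic anhydrases are zinc enzymes that turn carbon dioxide and water into bicarbonate and a proton, and back. They differ in where they act. Some face the outside of the cell, some work in the cytosol, and some, the carbonic anhydrase-related proteins, have lost the catalytic activity. Slc4a4 encodes NBCe1, which carries sodium and bicarbonate together across the plasma membrane and brings bicarbonate into pancreatic duct cells for secretion. In islets, bicarbonate and pH bear on hormone secretion, and ductal epithelium is the classical site of carbonic anhydrase and NBCe1 in the pancreas.

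Totals ran from 7256042 to 11262368 estimated counts in bottom libraries and from 6657639 to 9366913 in top libraries. The label of beta cells was checked against marker genes. The 9 beta cell markers summed to between 38700 and 81400 CPM, which are counts scaled to a common library size, in bottom libraries and to between 344000 and 506000 in top libraries. The 5 delta cell markers summed to 33400 to 57800 CPM in bottom and 2650 to 5300 in top, and the 3 markers of PP cells to 11400 to 92100 CPM in bottom and 1220 to 2380 in top. In the bottom population the hormone genes of delta and PP cells thus stood beside those of beta cells. Bottom 1 and bottom 2 stood apart in their 15 intestinal epithelium markers, which summed to 32410 and 7602 CPM there, against 48.5 and 21.5 CPM in bottom 3 and bottom 4 and 63.8 to 2040 CPM in top libraries. The 7 alpha cell markers summed to 29000 to 142000 CPM in bottom and 65400 to 138000 CPM in top, so both populations carried them at overlapping levels. Of the 7, all tested, 0 were called (edgeR, 0 also at an unadjusted p under 0.05 and with DESeq2 or limma-trend). Means of the 10 genes are also given without bottom 1 where leaving it out moved them by over 1.5 times.

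Start regions of 3 genes are shown because Car15 and Slc4a4 are the tested genes of the list with an entry in the RefSeq tables, and because Car9 is the textbook target of hypoxia-inducible factor. RefSeq tables on build GRCm38.p6 held 8 start regions for 6 of the 10 genes. Each runs from 250 bases before to 50 bases after the transcription start, 5′ to 3′ on the gene's strand. The Car15 region is at chr16:17838137-17838436 on the minus strand, those of Slc4a4 are at chr5:88887010-88887309 and chr5:89027716-89028015 on the plus strand, and that of Car9 is at chr4:43506776-43507075 on the plus strand. Capitals mark matches, on either strand, to TGCTGA, part of the recognition element of Maf factors, and to ACGTG, the core of the hypoxia response element.
Car15 start region: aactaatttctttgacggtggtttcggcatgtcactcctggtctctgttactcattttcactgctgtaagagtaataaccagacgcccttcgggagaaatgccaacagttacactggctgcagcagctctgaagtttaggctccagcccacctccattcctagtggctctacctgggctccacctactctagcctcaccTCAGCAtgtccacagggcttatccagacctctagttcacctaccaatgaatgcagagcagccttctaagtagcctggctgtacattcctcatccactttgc
Slc4a4 upstream start region: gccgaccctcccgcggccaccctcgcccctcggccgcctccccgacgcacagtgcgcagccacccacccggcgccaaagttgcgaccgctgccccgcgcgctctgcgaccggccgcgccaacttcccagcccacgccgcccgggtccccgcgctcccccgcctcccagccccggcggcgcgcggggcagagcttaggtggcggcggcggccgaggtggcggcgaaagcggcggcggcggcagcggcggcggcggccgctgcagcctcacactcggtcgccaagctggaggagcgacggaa
Slc4a4 downstream start region: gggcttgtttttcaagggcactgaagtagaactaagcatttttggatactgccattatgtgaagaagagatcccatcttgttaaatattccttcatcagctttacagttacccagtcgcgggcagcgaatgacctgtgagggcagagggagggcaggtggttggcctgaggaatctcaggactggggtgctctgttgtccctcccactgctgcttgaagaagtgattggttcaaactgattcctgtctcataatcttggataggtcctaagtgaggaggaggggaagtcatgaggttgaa
Car9 start region: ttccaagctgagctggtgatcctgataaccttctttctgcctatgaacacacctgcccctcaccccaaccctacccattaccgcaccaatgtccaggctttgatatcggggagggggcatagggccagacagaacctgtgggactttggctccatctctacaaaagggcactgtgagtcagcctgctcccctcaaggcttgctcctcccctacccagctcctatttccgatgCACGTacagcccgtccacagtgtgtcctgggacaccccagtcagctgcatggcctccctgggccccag
The Maf element was found once in the Car15 region and in no region of the other 5 genes, and 19.5% of all 32851 RefSeq start regions hold it. The hypoxia core was found once each in the Car9 and Car4 regions, and 19.6% of all start regions hold it. The homeodomain core TAATTA and the HNF1 element GTTAAT, which 5.29% and 7.1% of all start regions hold, matched none of the 8 regions. The upstream Slc4a4 region is 80% G and C with 50 CpG pairs, while the downstream one is 48.3% with 3, and the median of all start regions is 52.7% with 7. The Car15 region has 50.3% G and C and 4 CpG pairs. The deposited table has 1 value per gene, so reads from the separate Slc4a4 starts are not told apart.

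Of the 10 genes, 4 passed the filter on low counts and entered the fit, Car15, Car8, Slc4a4 and Car2, and the other 6 are described by their values. In the edgeR quasi-likelihood fit over 11721 genes, Car15 was among the genes called lower in bottom, and Car8 and Slc4a4 were among those called higher. Over all genes tested 0.444% were called (0.162% lower and 0.282% higher), and since the list was chosen with this contrast known, nothing is read from the count. For Car15 every bottom library lay below every top library, as for 3.91% of all genes tested, and for Car8 and Slc4a4 every bottom library lay above, as for 3.31% (7.22% in either direction). Because these are bulk libraries, fewer cells of a type and less RNA per cell cannot be told apart in any of the differences below.

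**Figure D1:**
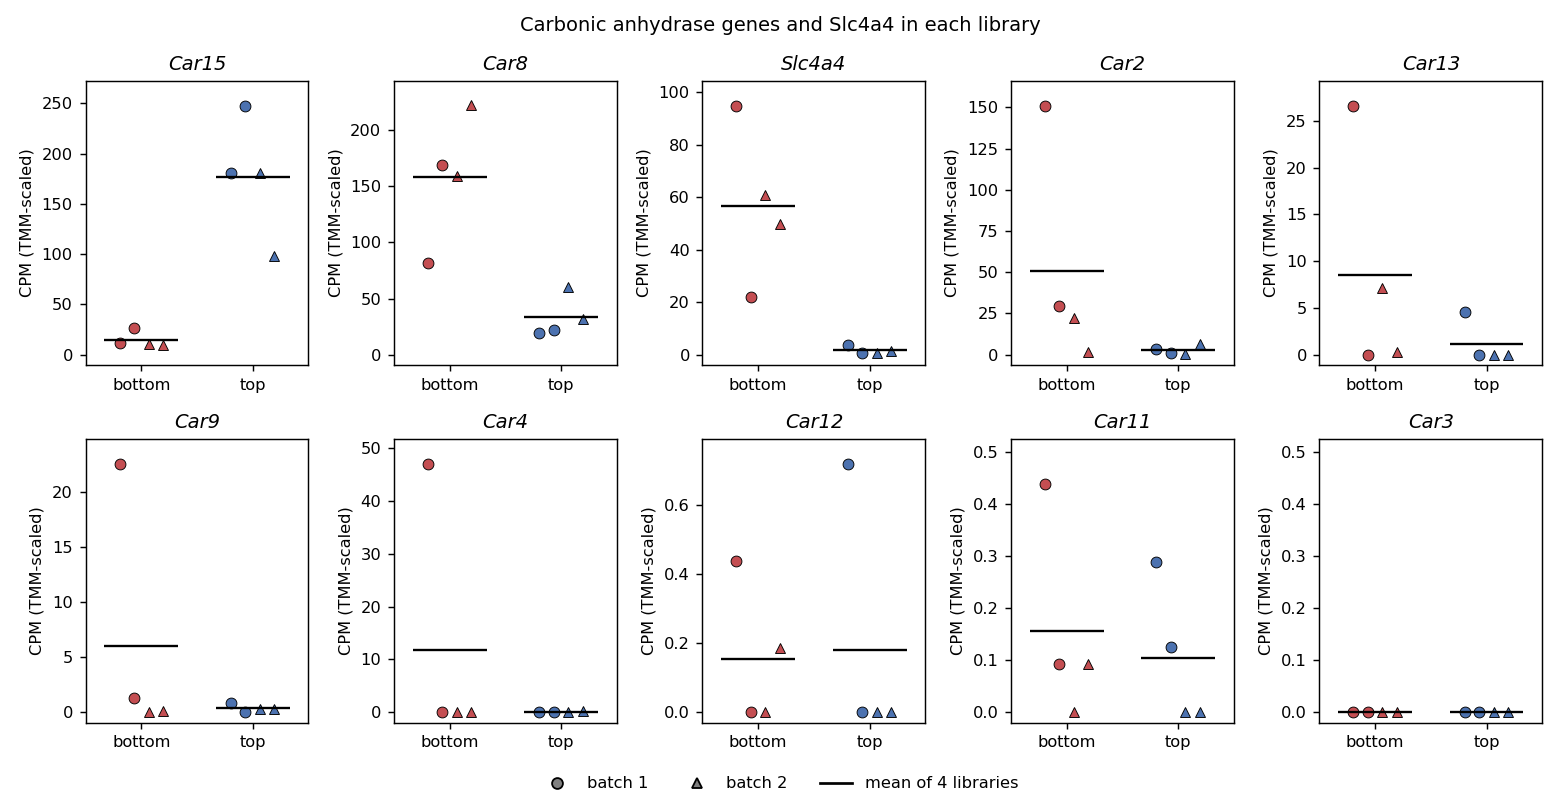
Level of each gene in CPM after TMM scaling, on linear axes with a separate scale for each gene, in bottom and top libraries; circles are batch 1, triangles batch 2 and the line is the mean of 4 libraries. Car15 lay between 9.17 and 26.6 CPM in bottom and between 98.3 and 247 CPM in top. Car8 and Slc4a4 were higher in all bottom libraries than in any top library, and Car2, Car13, Car9, Car4 and Slc4a4 were highest in bottom 1.

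Among the enzymes that face the outside of the cell, Car15 showed the clearest difference. Car15 is anchored to the membrane by a lipid tail in mice, and the human gene is a pseudogene. Its level was 11.7, 26.6, 10.7 and 9.17 CPM in bottom 1 to bottom 4, against 181, 247, 181 and 98.3 CPM in top 1 to top 4. Every bottom library was below every top library, and the lowest top library was 3.69 times the highest bottom library. The means were 14.6 ± 8.12 CPM in bottom and 177 ± 61.0 CPM in top (SD, n = 4). The log2 fold change of bottom over top was -3.64 with a standard error (SE) of 0.40, and it was -3.50 in batch 1 alone and -3.79 in batch 2 alone. Within a population the level varied by 2.90-fold among bottom libraries and 2.52-fold among top libraries. The beta cell markers were lower in bottom as well when summed. Among them Ins1, Ins2, Iapp, G6pc2, Slc2a2, Ucn3 and Slc30a8 were lower in every bottom library than in any top library, as were 3.91% of all genes tested. Pdx1 overlapped between populations (2.63 to 5.35 CPM in bottom, 1.36 to 7.62 CPM in top). Nkx6-1 did too (0 to 4.77 CPM in bottom, 0.989 to 18.8 CPM in top). Bottom 2 and bottom 4 had similar sums, while Car15 was 26.6 CPM and 9.17 CPM there. The 9 markers summed to 38730, 81370, 61840 and 79060 CPM in bottom 1 to bottom 4, against 445500, 505600, 344000 and 365400 CPM in top 1 to top 4. Of the 9 beta cell markers, 3 were called lower in bottom in edgeR and none was at 0 counts; 7 were called with DESeq2, 7 with limma-trend, and 7 had an unadjusted p under 0.05 in edgeR. Their part in the Car15 difference was not tested.

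Car4, another enzyme with a lipid anchor, was found in 1 bottom library. It had 430 counts, or 47.0 CPM, in bottom 1, and 0 counts in bottom 2, bottom 3 and bottom 4. Among top libraries it had 1 count, in top 4, and 0 in the others. The bottom mean of 11.7 CPM therefore rests on bottom 1 alone and was 0 without it. Car9, a transmembrane enzyme that low oxygen induces, had 206, 14, 0 and 1 counts in bottom 1 to bottom 4 and 6, 0, 2 and 2 in top 1 to top 4. Its level was 22.5 CPM in bottom 1 and at most 1.31 CPM in every other library, and 93.2% of its bottom counts came from bottom 1. The bottom mean was 5.98 CPM, or 0.467 CPM without bottom 1, and the top mean 0.357 CPM, or 0.188 CPM without top 1. In the RefSeq annotation of GRCm38 the Car9 gene overlaps Arhgef39 and Tpm2, and the library kit is not stated to keep strand, so reads of the shared stretches could not be separated. Car12, a transmembrane enzyme related to Car9, was near the limit of detection, with 4, 0, 0 and 2 counts in bottom 1 to bottom 4 and 5, 0, 0 and 0 in top 1 to top 4. A difference in Car12 was not detectable at this depth.

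Among the cytosolic enzymes, Car2 varied widely between libraries and was highest in bottom 1. Car2 is the fast enzyme of red cells, kidney and duct epithelium. Its level was 151, 29.5, 22.0 and 1.85 CPM in bottom 1 to bottom 4, against 3.60, 0.879, 0.247 and 6.51 CPM in top 1 to top 4. The populations overlapped, since bottom 4 lay below top 1 and top 4. The highest bottom library was 81.3 times the lowest, and bottom 1 held 71.7% of the counts in bottom. The means were 51.0 ± 67.4 CPM in bottom and 2.81 ± 2.86 CPM in top (SD, n = 4). Without bottom 1 the bottom mean was 17.8 CPM, and without top 4 the top mean was 1.57 CPM. The log2 fold change was 3.57 (SE 1.40), with 5.30 in batch 1 alone and 1.83 in batch 2 alone, and Car2 was not called in edgeR.

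Car13, a cytosolic relative of Car2, had 243, 0, 68 and 3 counts in bottom 1 to bottom 4 and 32, 0, 0 and 0 counts in top 1 to top 4. Its level was 26.6 CPM in bottom 1, 7.16 CPM in bottom 3 and 4.603 CPM in top 1, and at most 0.278 CPM in the other libraries. The bottom mean was 8.50 CPM, or 2.48 CPM once bottom 1 was left out, and top averaged 1.15 CPM, or 0 once top 1 was left out. Car3, the slow enzyme of skeletal muscle and fat, had 0 counts in all 8 libraries. A count of 0 allows up to 0.0747 CPM over the bottom libraries and 0.102 CPM over the top libraries, for counting error only. Skeletal muscle markers were low too, at 2.13 to 11.0 CPM in bottom and 4.52 to 31.9 CPM in top for 6 genes summed. Of 7 adipocyte genes, which summed to 12.3 to 107 CPM in bottom and 0 to 7.91 CPM in top, Adipoq, Cfd, Retn and Lep had 0 counts in every library. Cidec reached 107 CPM in bottom 1 and 37.6 CPM in bottom 2. Fabp4 was 0, 7.01, 17.6 and 12.1 CPM in bottom 1 to bottom 4 and 0 in every top library.

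Car2, Car4, Car9, Car13 and the intestinal markers were all highest in bottom 1, and so was Slc4a4, described below. Over all genes tested 20.2% were highest in bottom 1. From bottom 1 to bottom 4, Car2 fell in the same order as the intestinal sum. Car9 was 22.5, 1.31, 0 and 0.0927 CPM there. Car13 did not keep that order, and Car4 was at 0 in every bottom library but bottom 1. Among top libraries Car2 was highest in top 4, at 6.51 CPM, while the intestinal sum was highest in top 1. The 15 intestinal markers summed to 32410, 7602, 48.5 and 21.5 CPM in bottom 1 to bottom 4 and to 2041, 173, 63.8 and 762 CPM in top 1 to top 4. All 15 were in the table, none had 0 counts throughout, 11 were tested and 0 were called (edgeR, 0 also at an unadjusted p under 0.05 and with DESeq2 or limma-trend). The fatty acid binding protein gene Fabp1 reached 9800 CPM in bottom 1 and 2340 CPM in bottom 2, against 0.632 CPM in bottom 3 and 0.741 CPM in bottom 4. In bottom 2, Car4 and Car13 had 0 counts beside 7602 CPM of intestinal markers. In bottom 3, Car2 was 22.0 CPM, where Vil1 was 36.6 CPM and every other of the 15 intestinal markers was at most 4.11 CPM. Vil1 was 44.4 CPM in top 3, where Car2 was 0.247 CPM. The 11 duct markers summed to 1180 to 1930 CPM in bottom, highest in bottom 3, and to 562 to 887 CPM in top, and Onecut1 was the 1 of them at 0 counts in every library. Krt19, a keratin of duct and gut epithelium, had levels of 227, 32.9, 11.2 and 0.463 CPM in bottom 1 to bottom 4, against 6.76, 0, 0 and 12.4 CPM in top 1 to top 4. Of 11 gastric markers, which summed to at most 8.88 CPM in bottom and 6.91 CPM in top, 7 were at 0 in every library. The 6 erythrocyte markers, of cells rich in Car2, summed to at most 0.649 CPM in bottom and 0.371 CPM in top. The part of these cell types in the levels of the enzymes was not tested.

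**Figure D2:**
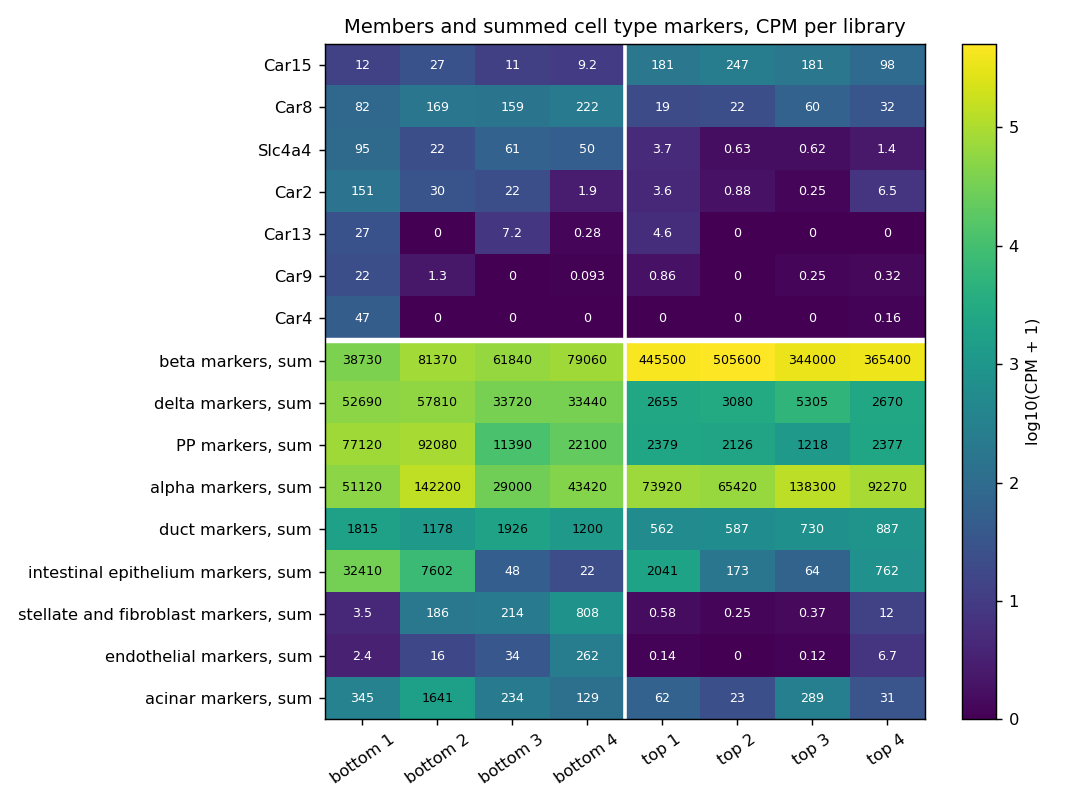
CPM per library for 7 of the genes (upper block) and for summed cell type markers (lower block), coloured by log10(CPM + 1) with the CPM printed in each cell; bottom libraries are on the left and top libraries on the right. Car2, Car13, Car9, Car4, Slc4a4 and the intestinal markers are all highest in bottom 1, whereas Car15 is high in the top libraries together with the beta cell markers.

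Among the carbonic anhydrase-related proteins, Car8 was higher in every bottom library. Car8 has no enzyme activity and is known from Purkinje neurons, where it binds the inositol trisphosphate receptor. Its level was 81.9, 169, 159 and 222 CPM in bottom 1 to bottom 4, against 19.0, 22.1, 60.2 and 31.9 CPM in top 1 to top 4. The lowest bottom library was 1.36 times the highest top library, so the populations were apart by a narrow gap. The means were 158 ± 57.7 CPM in bottom and 33.3 ± 18.8 CPM in top (SD, n = 4). The log2 fold change was 2.33 (SE 0.38), 2.59 in batch 1 alone and 2.06 in batch 2 alone. Within each batch both bottom libraries were above both top libraries. Car8 was lowest among bottom libraries in bottom 1, where Car2 was highest. Car11, the other related protein of the list, is known from brain and had 4, 1, 0 and 1 counts in bottom 1 to bottom 4 and 2, 1, 0 and 0 in top 1 to top 4, too few to show a difference.

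The transporter Slc4a4 was higher in every bottom library than in any top library. Its level was 94.6, 22.1, 60.9 and 49.8 CPM in bottom 1 to bottom 4, against 3.74, 0.628, 0.618 and 1.43 CPM in top 1 to top 4. The lowest bottom library was 5.90 times the highest top library. The means were 56.8 ± 30.01 CPM in bottom and 1.60 ± 1.47 CPM in top (SD, n = 4), and the top mean was 0.892 CPM without top 1. The log2 fold change was 5.23 (SE 0.81), with 4.71 in batch 1 alone and 5.77 in batch 2 alone. Like Car2, Slc4a4 was highest in bottom 1, but unlike Car2 it was also high in bottom 3 and bottom 4. Without bottom 1 its bottom mean was 44.2 CPM. Delta and PP cell markers were higher in bottom as well. Of 4 tested delta cell markers 3 were called higher, Sst, Hhex and Rbp4, and of 3 tested PP cell markers 2, Ppy and Pyy, and none of either list was at 0 counts. The 8 stellate and fibroblast markers summed to 3.5 to 808 CPM in bottom and 0.251 to 12.4 CPM in top, and of 3 tested 2 were called higher, the matrix genes Col3a1 and Dcn. The 7 endothelial markers summed to 2.4 to 262 CPM in bottom and 0 to 6.67 CPM in top, and none passed the filter on low counts. The duct markers, already given, were higher in every bottom library as a sum, and of 9 tested 1 was called higher, Krt8, a keratin of simple epithelia. The part of those cells in the levels of Car8 and Slc4a4 was not tested.

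**Figure D3:**
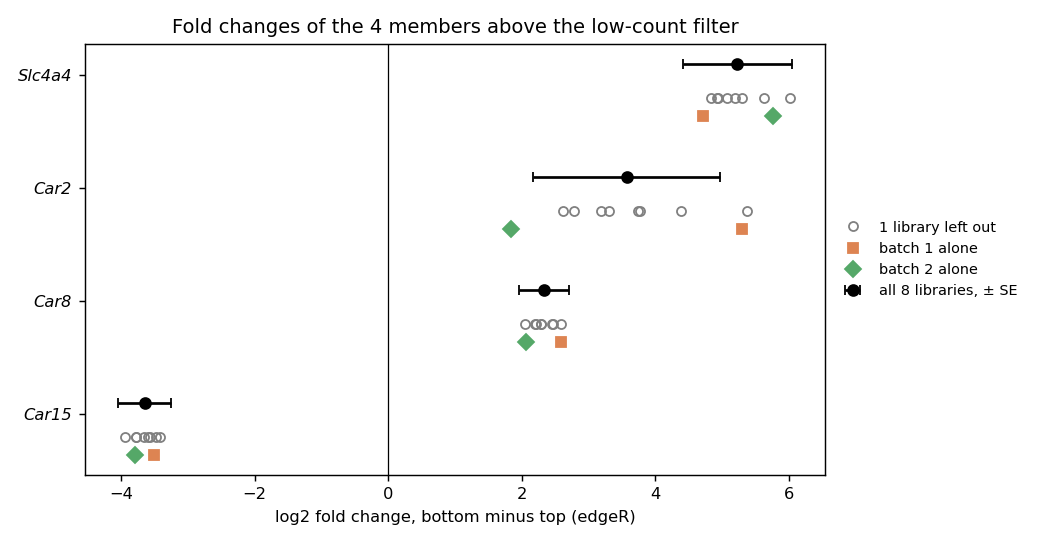
Log2 fold change of bottom over top for the 4 genes above the low-count filter, from all 8 libraries with its SE (black), with each library left out in turn (open circles) and within each batch (squares and diamonds). The signs do not change; the omission values run from -3.94 to -3.42 for Car15, 2.05 to 2.58 for Car8, 4.84 to 6.02 for Slc4a4 and 2.62 to 5.37 for Car2.

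Car15, Car8 and Slc4a4 kept their direction with any 1 library left out, while Car8 and Slc4a4 mostly lost the call. Over all genes tested 52 were called with all 8 libraries, 60 without bottom 1 and 8 to 33 without any 1 other library. Car15 stayed called in 6 of 8 omissions and was lost without bottom 4 or top 2. Car8 stayed called in 1 of 8, that of bottom 1, and was lost without bottom 2, bottom 3, bottom 4 or any 1 top library. Slc4a4 stayed called in 1 of 8, that of bottom 2, and was lost without bottom 1, bottom 3, bottom 4 or any 1 top library. A fit without both bottom 1 and bottom 2 was added after seeing the data. It had no batch term, with bottom from batch 2 alone and top from both batches, so batch and population were not fully separated. All 3 were called there, with log2 fold changes of -4.14 for Car15, 2.52 for Car8 and 5.12 for Slc4a4. Nothing is read from these calls.

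Summed over the 9 carbonic anhydrase genes, the counts of the populations were similar, while the genes they came from differed. This sum takes in Car8 and Car11, related proteins without activity, and leaves out carbonic anhydrases outside the list. It is therefore no measure of enzyme level. The sum was 341, 226, 199 and 234 CPM in bottom 1 to bottom 4 and 210, 270, 242 and 137 CPM in top 1 to top 4. The means were 250 ± 62.5 CPM in bottom and 215 ± 57.4 CPM in top (SD, n = 4), and the libraries of the populations overlapped. Car15 supplied 3.43%, 11.8%, 5.39% and 3.93% of the sum in bottom 1 to bottom 4, and 86.2%, 91.5%, 74.9% and 71.6% in top 1 to top 4. Car8, which has no enzyme activity, supplied 24%, 74.5%, 80% and 95% in bottom 1 to bottom 4 and 9.03%, 8.17%, 24.9% and 23.3% in top 1 to top 4. Car2 supplied 44.2% in bottom 1 and at most 13.1% in the other libraries. These are shares of counts and are not corrected for transcript length, so they compare a gene between libraries and not one gene with another.

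**Figure D4:**
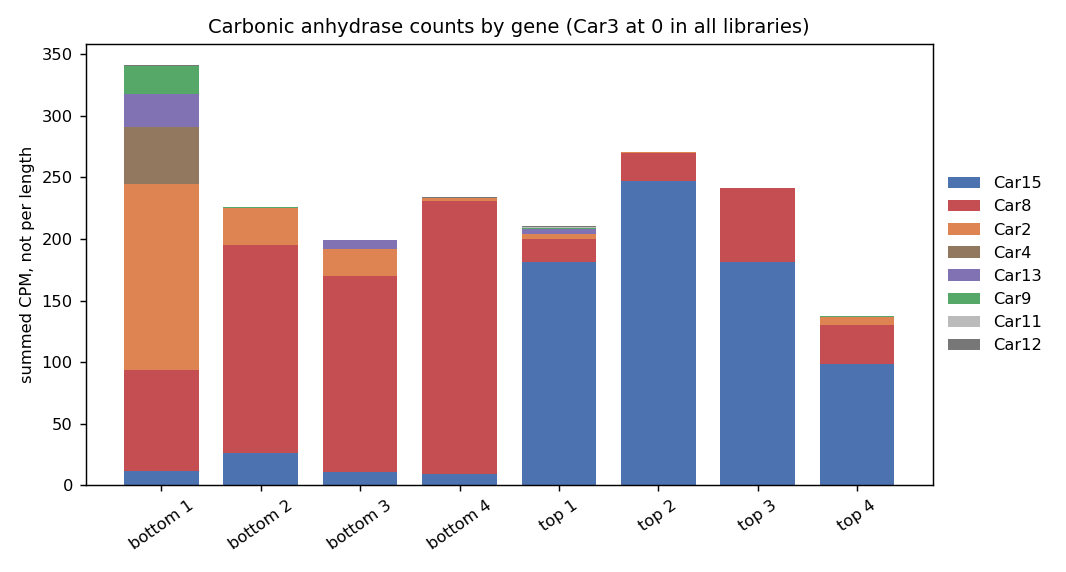
CPM of the carbonic anhydrase genes stacked by gene in each library, not corrected for transcript length. Car15 makes up most of the bar in the 4 top libraries (71.6% to 91.5%), Car8 most of it in bottom 2, bottom 3 and bottom 4 (74.5% to 95%), and bottom 1 holds most of the Car2, Car4, Car13 and Car9 counts.

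By library profile, the genes most like each of these 4 were found among 8229 genes with a mean of at least 10 CPM. Likeness was the root mean square difference between log2(CPM + 1) profiles over the 8 libraries, each centred on its own mean, and it is given with no test. The nearest to Car15 were the insulin gene Ins2 (0.518), Ica1l (0.548) and Ins1 (0.594), against a median of 1.97 over all candidates. The nearest to Car8 were Arg1, which encodes arginase (0.388), Clu, which encodes clusterin (0.398), and Fam159b (0.412), against a median of 1.52. Arg1 had levels of 133, 147, 148 and 176 CPM in bottom 1 to bottom 4, against 12.8, 20.0, 37.7 and 23.5 CPM in top 1 to top 4. The nearest to Slc4a4 were Mef2c, a transcription factor (0.657), Gpr116, an adhesion receptor (0.714), and Zfp36l1, which destabilises mRNAs (0.800), against a median of 2.48. The nearest to Car2 were Trim30d (0.719), Krt19 (0.730) and Myo7b, a myosin of the brush border (0.782), against a median of 2.33.

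Other genes that handle acid and base, with genes that use bicarbonate or that low oxygen induces, were taken from 8 lists. The lists hold 101 genes and none of the 10. Of 65 tested genes on these lists 1 was called, Pcx, which was lower in bottom, where 0.444% of all genes tested were called. Pcx encodes pyruvate carboxylase, which uses bicarbonate to make oxaloacetate. It was at 0.109, 0.561, 0.527 and 1.95 CPM in bottom 1 to bottom 4, against 38.6, 58.0, 23.0 and 38.9 CPM in top 1 to top 4. All bottom libraries were below all top libraries, and the log2 fold change was -5.78 with an SE of 0.94 (adjusted p = 0.0424 in edgeR). The call held without bottom 1 and was lost in the other 7 omissions (edgeR adjusted p 0.0406 to 0.149 over all omissions). The other 6 tested genes of the list of bicarbonate sensing and carboxylases were not called, and their values ran from -1.79 for Pccb (SE 0.65), a subunit of propionyl-CoA carboxylase, to 0.39 for its partner Pcca (SE 1.22), with Mccc1, of methylcrotonyl-CoA carboxylase, at 0.17 (SE 0.60). The median of the 7 was -1.15, where the median of all genes tested was 0.00.

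None of the other 3 tested carbonic anhydrases was called (edgeR, 1 at an unadjusted p under 0.05, 0 with DESeq2 and 0 with limma-trend). Car10, a related protein without activity like Car8, was at 0.109, 2.99, 1.37 and 2.97 CPM in bottom 1 to bottom 4, against 25.2, 11.1, 5.44 and 7.46 CPM in top 1 to top 4. Its libraries did not overlap, and its log2 fold change was -2.55 with an SE of 1.12 (adjusted p = 0.479 in edgeR), opposite in sign to that of Car8. The mitochondrial enzymes Car5a and Car5b had values of 0.59 (SE 0.71) and -0.31 (SE 0.66). Car1 and Car14 had 0 counts in every library, and Car6 and Car7 were too low to be tested, with Car7 reaching 9.91 CPM in bottom 4.

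No other bicarbonate transporter of the SLC4 family was called among 5 tested (edgeR, 0 at an unadjusted p under 0.05 and 0 with DESeq2 and limma-trend). Slc4a7, a sodium bicarbonate cotransporter that does not move net charge, had 324, 49.4, 17.5 and 84.4 CPM in bottom 1 to bottom 4 and 227, 151, 94.5 and 115 CPM in top 1 to top 4, with a log2 fold change of -0.53 (SE 0.63), or -1.39 without bottom 1. The anion exchangers Slc4a2 and Slc4a3 had values of -0.05 (SE 1.13) and 1.09 (SE 0.77), and the sodium-driven exchanger Slc4a8 one of 0.71 (SE 0.83). The SLC26 anion exchangers had 3 tested genes and no call (edgeR, 0 at an unadjusted p under 0.05 and 0 with DESeq2 and limma-trend), with values of 0.56 for Slc26a1 (SE 2.65), 0.84 for Slc26a2 (SE 1.45) and 0.83 for Slc26a6 (SE 1.63). Slc26a6 was 135 and 82.2 CPM in bottom 1 and bottom 2 and 0 and 2.41 CPM in bottom 3 and bottom 4, beside the intestinal markers already given. A link of Slc26a6 to intestinal cells was not tested.

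**Figure D5:**
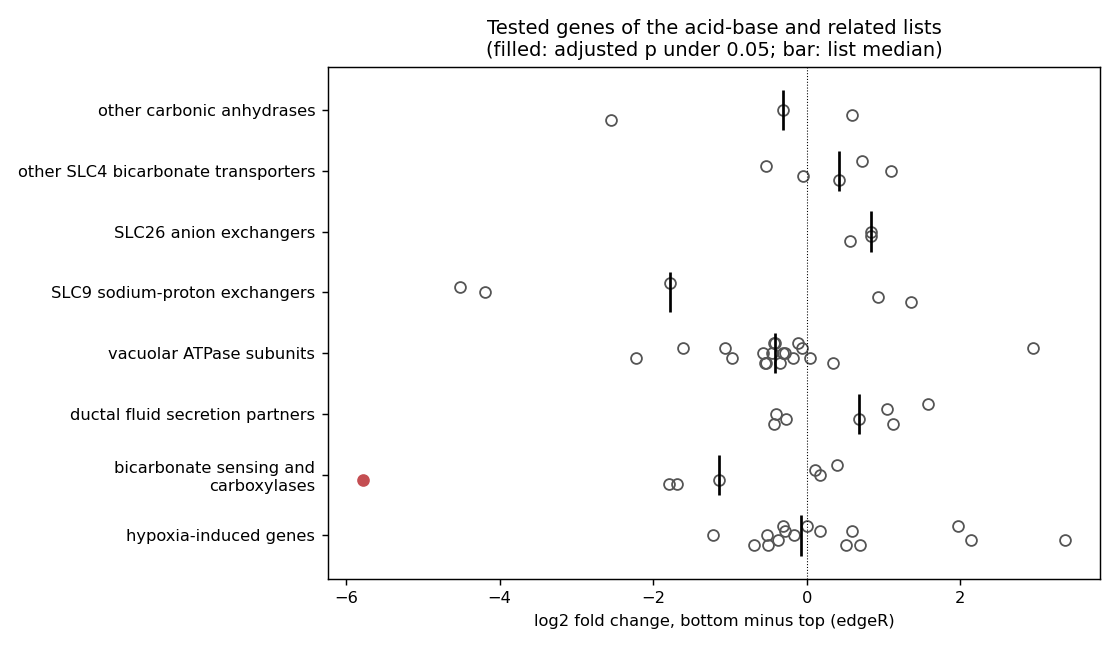
Log2 fold change of bottom over top for the tested genes of 8 lists of acid-base and related genes; each circle is a gene, the filled one (Pcx, -5.78) has an adjusted p under 0.05, and the bars are list medians. Of the 19 tested subunits of the vacuolar ATPase, 16 lie below 0, as do 5844 of the 11721 genes tested. Scaled to total counts with no TMM factor, 8 of the 19 lie above 0.

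The sodium-proton exchangers of the SLC9 family had no call among 5 tested genes (edgeR, 1 at an unadjusted p under 0.05, 1 with DESeq2 and 0 with limma-trend). Slc9a8, an exchanger of the Golgi apparatus and the 1 that DESeq2 called, was at 0.109, 0.28, 0.527 and 7.04 CPM in bottom 1 to bottom 4, against 54.8, 12.9, 29.1 and 4.76 CPM in top 1 to top 4 (log2 fold change -4.52, SE 1.63, edgeR adjusted p = 0.353). Slc9a7, of the same organelle, was at -4.19 (SE 2.17), or -2.57 without bottom 1.

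The subunits of the vacuolar ATPase, which acidifies secretory granules and lysosomes, had no call among 19 tested (edgeR, 2 at an unadjusted p under 0.05, 1 with DESeq2 and 0 with limma-trend). Of the 19 log2 fold changes 16 were negative, with a median of -0.41, where 5844 of the 11721 genes tested were negative. Scaled to total counts with no TMM factor, 11 were negative with a median of -0.09, and the median of all genes tested was then 0.32. The lowest values were -2.23 for Atp6v1g2 (SE 1.87) and -1.61 for Atp6v0a2 (SE 1.03), and the highest 2.95 for Tcirg1 (SE 1.58) and 0.34 for Atp6v0c (SE 0.56). The pair with an unadjusted p under 0.05, Atp6ap2 and Atp6v1e1, is named here after its values were seen. Atp6ap2, which DESeq2 called, averaged 210 ± 72 CPM in bottom and 405 ± 22.2 CPM in top (SD, n = 4), a difference of -0.98 on the log2 scale with an SE of 0.27 (adjusted p = 0.214 in edgeR). Atp6v1e1 averaged 118 ± 39.6 CPM in bottom and 248 ± 61.1 CPM in top (SD, n = 4), a difference of -1.06 on the log2 scale with an SE of 0.33 (adjusted p = 0.276 in edgeR). For both, all bottom libraries were below all top libraries, as for 3 of the 19 in all and 3.91% of all genes tested. For 1 of the 19, Tcirg1, all bottom libraries were above, as for 3.31% of all genes tested.

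Partners of Slc4a4 in ductal fluid secretion had no call among 7 tested (edgeR, 1 at an unadjusted p under 0.05, 0 with DESeq2 and 0 with limma-trend), with a median of 0.68. The chloride channel gene Cftr, which works with NBCe1 in duct cells, was at 9.29, 0.28, 4.53 and 5.0 CPM in bottom 1 to bottom 4, against 4.603, 2.26, 0 and 23.0 CPM in top 1 to top 4 (log2 fold change -0.40, SE 1.55). Its libraries overlapped, where those of Slc4a4 did not. Ahcyl1, which encodes the NBCe1 activator IRBIT, was at -0.42 (SE 0.40), the scaffold gene Slc9a3r1 at 1.58 (SE 0.65, or 0.96 without bottom 1) and the kinase gene Stk39 at 1.13 (SE 0.68).

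Genes that low oxygen induces, fixed as a list because Car9 is one of that kind, had no call among 16 tested (edgeR, 2 at an unadjusted p under 0.05, 1 with DESeq2 and 0 with limma-trend). As many were positive as negative, 8 each, with a median of -0.08. Vegfa, the vascular growth factor, was at 51.5, 86.0, 103 and 101 CPM in bottom 1 to bottom 4, against 148, 105, 152 and 134 CPM in top 1 to top 4 (log2 fold change -0.68, SE 0.29). Of the 16 tested genes 5 were highest of all 8 libraries in bottom 1, where Car9 was highest, as were 20.2% of all genes tested. Ldha, a lactate dehydrogenase, had levels of 834, 239, 26.7 and 43.7 CPM in bottom 1 to bottom 4, against 39.0, 2.51, 3.09 and 14.5 CPM in top 1 to top 4 (3.37, SE 1.01, edgeR adjusted p = 0.254), beside the same intestinal markers. The glycolytic regulators Pfkfb3 and Pfkfb4 were at 2.14 (SE 1.34) and -1.21 (SE 2.57), and Pfkfb3 was at 0.12 without bottom 1.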

How the data were processed

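RNA was measured in 4 bottom and 4 top libraries of sorted NOD beta cells; cDNA came from the SMARTer Ultra Low RNA kit and libraries from Nextera XT, per the labels' protocols. The values deposited by the authors are expected counts per gene from RSEM, which divides reads that match several genes; the submitters' processing notes name RSEM, edgeR and mm9, and for the aligner and annotation nothing is given in the sources used here. The table of the series and the library tables differed by 0 in every value. Expected counts (34.8% not whole) were rounded. Replicate libraries shared the same count in at most 0.525% of genes with 25 or more counts, so none was a repeat.

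Genes were filtered with filterByExpr by population, scaled by TMM and tested with edgeR 4.0.16 (quasi-likelihood, R 4.3.3) for bottom against top, with an additive term for batch. Benjamini-Hochberg adjustment ran over all 11721 genes tested (98.01% or more of each library), with a threshold of 0.05. CPM are counts per effective library size after TMM. The SE is the log2 fold change divided by the square root of its F statistic. Reads were amplified and carry no molecular identifiers, so the limit of 3 counts covers counting error only. The alternatives were DESeq2 1.42.0, limma 3.58.1, other scalings, no filter and no batch term. Others were each batch alone, a block of batch and title number, and leaving out each library. Leaving out bottom 1 and bottom 2 together, in a fit with no batch term, was added after seeing the data.

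The 10 genes, the gene lists and the tests were chosen with earlier results of these data known. Named genes are all 10, each called gene of the 8 lists and the 2 highest and 2 lowest log2 fold changes of each list, some of which are not reported here. Genes were identified by symbol. Sequences come from RefSeq tables on GRCm38.p6, another build than mm9, and carry no measured value; protein sequences were not used here.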

Additional observations from a re-analysis of the deposited data

Results flagged for a closer look

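For these values 1 of the 4 libraries of a population stood so far from the other 3 that its gap, as a share of the whole range, passed Dixon's critical value at 95%. Of 74 groups checked 12 did, each with the library on the high side. Chance alone gives about 1 in 20 for normally distributed values. CPM need not be distributed so, and the 12 are not set against that rate. In 4 of the 12, those of Car4 in both populations and of Car12 and Car13 in top, the other 3 libraries were at 0, where any count passes, so that rate does not apply to them. Among the carbonic anhydrases, Car15 was 26.6 CPM in bottom 2, against 9.17 to 11.7 CPM in the other bottom libraries. Car4 was 47.0 CPM in bottom 1 and 0 in the other bottom libraries, and 0.159 CPM in top 4 and 0 in the other top libraries. Car9 was 22.5 CPM in bottom 1 and at most 1.31 CPM in the others. In top 1, Car12 was 0.719 CPM and Car13 4.603 CPM, and both were 0 in the other top libraries.

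Among the other genes, bottom 2 was high in Slc26a1 (17.4 CPM, others at most 2.32) and Tcirg1 (50.2 CPM, others at most 9.83), and bottom 4 in Slc9a8 (7.04 CPM, others at most 0.527). Top 1 was high in Slc26a6 (20.6 CPM, others at most 5.24) and Atp6v0c (53.5 CPM, others at most 16.3), and top 3 in Ahcyl1 (241 CPM, others at most 202).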

How the results depend on the processing

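The log2 fold changes of Car15, Car8, Slc4a4 and Car2 kept their sign under all 19 alternatives, in ranges of -4.14 to -3.32, 1.75 to 2.65, 4.71 to 6.02 and 1.83 to 5.80. Of 52 genes called, 33 were higher and 19 lower; scaled to total counts 54 were higher and 16 lower. DESeq2 called 589 genes and 4 genes of the lists, limma-trend 145 genes, and edgeR 204 genes and 2 of the lists with no filter, 32 genes with no batch term, and 141 genes without bottom 1 and bottom 2. Car2 was called by DESeq2 alone, and Car8 was not called with no batch term. Each batch alone gave 2 genes, 0 of the 10 and 0 of the lists, from 2 libraries against 2. With 1 library left out, 8 to 60 genes were called, 0 to 2 of the 10 and 0 to 1 of the lists. A replicate block of batch and title number called 0 genes, 0 of the 10 and 0 of the lists; only the libraries numbered 1 then compare the populations within a block. Their deviations from the fit of batch and population correlated at -0.209 in batch 1 and -0.266 in batch 2. Pairs of a bottom and a top library of 1 batch with unlike numbers gave -0.383 to -0.135. Removing batch and population makes such correlations negative by itself. They therefore cannot decide whether samples with the same number belong together.

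DESeq2 called Slc9a8 and Ldha, and edgeR called Ldha with no filter. Of 28 other genes named by rule, all but Pcx uncalled in edgeR with all 8 libraries, 13 turned sign somewhere, and the cause was not tested. Scaled to total counts Car5b was 0.011 and Slc4a2 0.28. In batch 1 alone Slc4a8 was -0.19, Slc26a2 -1.31, Cftr 0.44, Ahcyl1 0.24, Pcca -0.086 and Pfkfb4 2.29. In batch 2 alone Car5b was 0.078, Slc4a2 0.16, Slc26a1 -2.16, Slc26a6 -1.78 and Mccc1 -0.51. With limma-trend Slc26a1 was -0.49, Cftr 0.15 and Pcca -0.21. With no batch term Pfkfb4 was 1.63. With the replicate block Slc26a1 was -2.21, Slc26a6 -0.49, Atp6v0c -0.10, Cftr 3.24 and Pfkfb4 0.49. Leaving out 1 library gave -0.82 to 0.93 for Slc4a2, -0.074 to 1.12 for Slc4a8, -2.88 to 1.97 for Slc26a1, -0.15 to 1.87 for Slc26a2, -0.43 to 2.01 for Slc26a6, -3.50 to 0.22 for Atp6v1g2, -2.03 to 1.88 for Cftr, -1.25 to 1.06 for Pcca, -0.12 to 0.58 for Mccc1 and -3.92 to 0.77 for Pfkfb4. Car3, Car11 and Car12, with 0 to 5 counts per library, are limited by depth.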
